A study of Homo sapiens with 4 samples.

Results

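The dense block of chromosome 19 is the set of GATA4 intervals that start at or after 35 Mb and before 40 Mb on that chromosome, in build hg19. It holds 511 of the 961 intervals of chromosome 19 and of 21139 in all on chromosomes 1 to 22 and X. The members were chosen by their start position, and the stretch itself was selected on the number of intervals it holds. Its count and spacing are therefore given as a description. The list comes from 4 CUT&RUN libraries of PaTu8988S, an established line from a pancreatic adenocarcinoma, all made with the anti-GATA4 antibody MAB2606 (10 ug for 500000 cells). CUT&RUN releases and sequences the DNA fragments that lie next to an antibody-bound protein in permeabilised cells. All 4 libraries form 1 group, with no treatment or genotype that differs between them, and whether they are separate cultures is not stated in the labels. Libraries made with another antibody or from input DNA were not analysed here.

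GATA4 is a zinc-finger transcription factor that binds short GATA-containing DNA sites, often in enhancers, and opens or holds open chromatin there together with other factors. It is known for its role in the development of heart, stomach, liver and pancreas. In pancreatic ductal adenocarcinoma, GATA4 and its paralogue GATA6 are known as factors of the classical, more differentiated tumours, and the series asks what the loss of both goes with. Band q13 of chromosome 19 is known as a place of recurrent copy-number gain in this cancer, and the copy number of PaTu8988S was not analysed here.

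The listed values are positions only. The list gives each interval's chromosome, start and end, with neither a score nor a gene name, and it pools the 4 libraries. The spread between libraries and the read depth behind an interval are thus unknown, and no test was run. Width is the end minus the start, in bp, and a gap is the distance from the end of an interval to the start of the next. An hg19 sequence and gene annotation were not used here, so no interval is assigned to a gene and no interval sequence is printed. For orientation, all 15 genes of a list for this band were found on chromosome 19 of the RefSeq gene table (GRCh38.p14), in the order LSR, USF2, HAMP, ATP4A, SIPA1L3, SPINT2, RYR1, ACTN4, LGALS4, HNRNPL, PAK4, PAF1, ZFP36, SUPT5H and DLL3. Between ATP4A, which encodes the catalytic subunit of the gastric proton pump, and SIPA1L3 lie 65 other protein-coding genes. Between ACTN4, an actin cross-linker, and PAK4, a kinase of the p21-activated family, lie LGALS4, HNRNPL and 13 other protein-coding genes. ZFP36, which promotes decay of AU-rich mRNAs, comes after PAF1, a subunit of the polymerase-associated PAF complex, with 1 gene between them. Which of these genes overlap the intervals was not determined.

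The block held a large part of the chromosome's intervals in a small part of its length. It spans 5 Mb, which is 8.47% of the 59.0 Mb between the first and the last interval of chromosome 19. It carried 53.2% of the chromosome's intervals and 65.4% of the bp they cover. The density was 102.2 intervals per Mb in the block and 8.33 per Mb over the 450 intervals of the rest, a ratio of 12.3. The intervals covered 573 kb or 11.5% of the block, against 303 kb or 0.561% of the rest.

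Members were not spread evenly. From 35 Mb on, the successive 1 Mb windows held 19, 31, 43, 120 and 298 intervals, and the next window, from 40 to 41 Mb, held 1. Each window of the block thus held more than the one before it, up to the edge. The 2 windows before the block, from 33 to 35 Mb, held 23 and 18, so the start of the block at 35 Mb is a bound of the rule and not a step in the data. Outside the block, the 55 windows of 1 Mb had a median of 5 intervals, 7 of them held 0, and the fullest held 51. The first 3 windows of the block thus lay within the range of the rest of the chromosome, and the last 2 lay above all of it. For the third, with 43, this rests on the 1 window of 51, from 27 to 28 Mb. The next fullest outside the block, from 48 to 49 Mb, held 37.

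**Figure D1:**
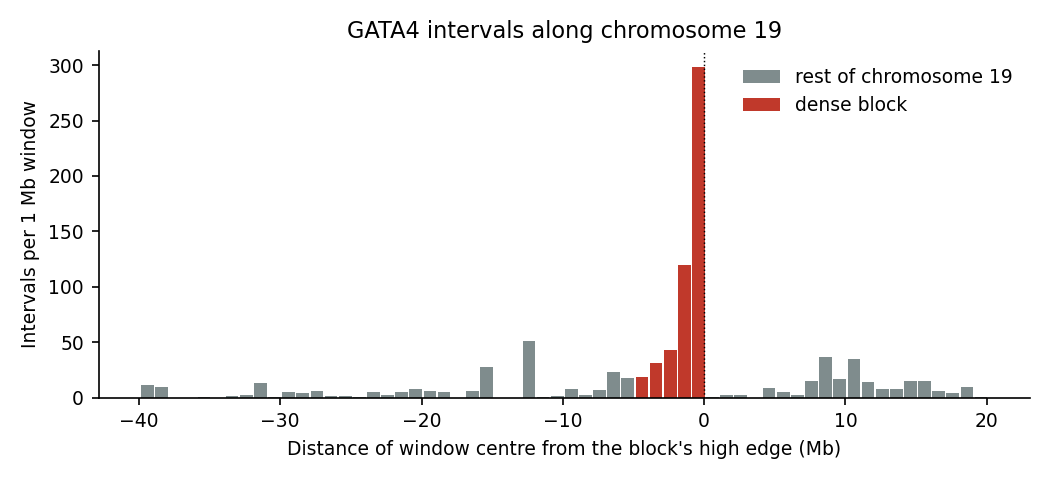
Number of GATA4 intervals in each 1 Mb window of chromosome 19 (vertical axis) against the distance of the window's centre from the high edge of the block in Mb (horizontal axis), with the dense block in red and the rest of the chromosome in grey. The 2 windows next to the edge hold 120 and 298 intervals, while no grey window exceeds 51.

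In steps of 100 kb, the members fell into a sparse stretch, a middle stretch and a dense end. The dividing point at 38.4 Mb was set after seeing the counts, as the point from which each 100 kb window up to 39.9 Mb held 10 or more intervals. From 35 Mb to this point, 107 members (20.9%) lay in 3.4 Mb, which is 31.5 per Mb and 3.78 times the density of the rest of the chromosome. They covered 3.70% of that stretch, and their median gap was 20.2 kb. Between 38.4 Mb and 39264410, 169 members (33.1%) lay in 864 kb, at 196 per Mb, and covered 17.9% of it, with a median gap of 2.86 kb. The dense end, from 39264410 to 39901666, held 235 members in 637 kb, at 369 per Mb, and covered 45.8% of it, with a median gap of 0.714 kb. The density thus went up 6.21 times from the sparse to the middle stretch and 1.89 times from the middle stretch to the dense end. The dense end makes up 12.7% of the length of the block and 50.9% of its covered bp.

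At the linking distance used, the middle stretch fell into several clusters, while the dense end was 1 cluster by definition. Neighbours with a gap of at most 12500 bp between them were put in the same cluster, and a cluster of 20 or more is called dense. The middle stretch was a chain of separate clusters parted by gaps longer than that. Its 5 dense clusters held 27, 22, 33, 25 and 23 intervals over lengths of 117, 105, 134, 70.5 and 63.4 kb. The dense end was taken as the largest cluster of the block, so being 1 cluster was given in advance. Its longest gap was 11.9 kb. The clusters of 10 or more in the middle stretch were followed by gaps of 13.4 to 27.6 kb. All but the last of these gaps are shorter than 25 kb, and the longest gap of the dense end exceeds 5 kb. The contrast thus depends on the linking distance. The last dense cluster before the dense end, from 39173362 to 39236769, was 47.8% covered with a median width of 1132 bp. The other 4 of the middle stretch were covered by 18.9% to 28.7% and had median widths of 712.5 to 767 bp. That last cluster was therefore closer to the dense end in coverage than to its own neighbours, and a gap of 27.6 kb parted it from the dense end.

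Within the sparse stretch, the members formed 2 clusters of 5 or more that lie wholly before 38 Mb. The first ran from 37499380 to 37507903 and held 5 intervals that covered 67.9% of its 8.52 kb. The second ran from 37743271 to 37809138 and held 7 intervals. A further cluster of 5, from 38384567 to 38398400, ended just below the dividing point. The sparse stretch also held 5 gaps longer than 100 kb, the longest of 194 kb, while no gap of the middle stretch exceeded 28.5 kb.

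**Figure D2:**
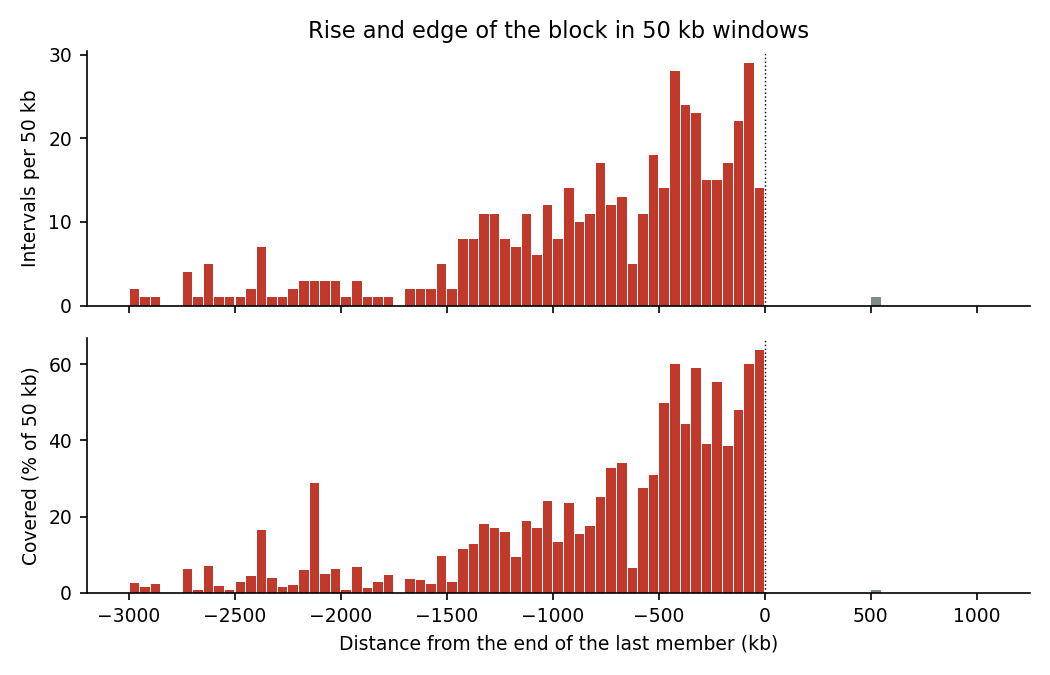
Number of intervals (top) and share of bp covered by intervals (bottom, percent) in 50 kb windows, against the distance in kb from the end of the last member, with the block in red and the chromosome beyond it in grey. Counts climb towards the edge, to between 14 and 29 per window in the 500 kb next to the edge, and a single interval follows in the next 1000 kb.

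The block ended abruptly on its high side. The last 5 members began at 39885923, 39892828, 39894867, 39896551 and 39900091 and were 1627, 1985, 738, 3129 and 1575 bp wide, so that the last one ended at 39901666. The next interval began at 40449914, after a gap of 548 kb, and was 435 bp wide. This gap ranks 15th by length among the 960 gaps of chromosome 19, whose median is 4.24 kb. The 4 intervals after that one began at 41426910, 41664915, 41769558 and 42238259 and were 494 to 902 bp wide, each with no neighbour within 12500 bp. The last 5 members before the edge were thus, apart from the 738 bp one, wider than any of the first 5 intervals beyond it.

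Counts on both sides give the size of the fall. The last 50 kb before the edge held 14 intervals that covered 63.7% of it, the last 100 kb held 43 that covered 62.0%, and the last 500 kb held 201 that covered 51.8%. Over the same distances beyond the edge there were 0 intervals. Over 1 Mb the counts were 320 and 1, and over 5 Mb they were 512 and 9. The coverage did not thin out towards the edge: the last 50 kb window had the highest coverage of the profile, with fewer but wider intervals (median 1682.5 bp) than the 29 intervals of the window before it (median 973 bp). An edge is partly built in here, since the last member of a cluster is by definition followed by a gap.

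The low side had no such step. The largest rise between neighbouring 500 kb windows was 72 intervals, from 24 in the window from 38 to 38.5 Mb to 96 in the next, and the following windows held 138 and 160. At the low end of the dense cluster, the 100 kb before its start held 23 intervals and the 100 kb after it 21. The first 5 intervals of that cluster were 420 to 1112 bp wide and lay up to 11.9 kb apart. The nearest interval below 35 Mb began at 34971400 and was 383 bp wide, and the first member began at 35070174 and was 1511 bp wide, with 98.4 kb between them.

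Other clusters also ended with no interval beyond them. Of the 4 dense clusters of the rest of chromosome 19, which held 20 to 32 intervals, all had 0 intervals in the 100 kb before their start. At 24631709, the end of one of them, the counts within 500 kb were 27 before and 0 after, and at 27744048, the start of the next, they were 0 before and 51 after. Both positions bound the same stretch of 3112 kb without an interval, and whether it holds assembled sequence was not checked. The dense clusters beginning at 48406764 and 50594296 had 6 and 10 intervals in the 500 kb before their start. In the 500 kb after their end, each had 6. Among these 4 clusters, a fall to 0 within 500 kb was thus found only beside that stretch. The edge of the block also differed from these ends in the number of intervals inside, which is what the block was chosen for. With at least 100 intervals inside and 0 outside within 500 kb, ends were found on chromosome 18 at 22104860 (219 inside), chromosome 19 at the edge of the block (201), chromosome 21 at 17232151 (188) and 11188133 (113), chromosome 1 at 142535430 (134) and chromosome 4 at 191043682 (111). Ends at an assembly gap or at the end of a chromosome were not told apart from the others.

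Intervals of the block were wider than those of the rest of the chromosome. Widths were not used by the rule, but they come from the same pooled list, and no test was run because intervals are not replicates. The median width was 883 bp in the block (quartiles 604.5 and 1265 bp, range 202 to 22689 bp) and 604 bp in the rest (quartiles 428 and 811 bp, range 100 to 3444 bp), a ratio of 1.46. The rest of chromosome 19 was close to the other chromosomes, whose 20178 intervals had a median of 581 bp. In all chromosomes together, 18.2% of the intervals were 1 kb or wider. In the block, 210 of 511 (41.1%) reached 1 kb, and in the rest of chromosome 19 60 of 450 (13.3%) did. A width of 2 kb or more was found in 41 members (8.02%) and in 6 intervals of the rest (1.33%), beside 2.91% of the intervals of all chromosomes.

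**Figure D3:**
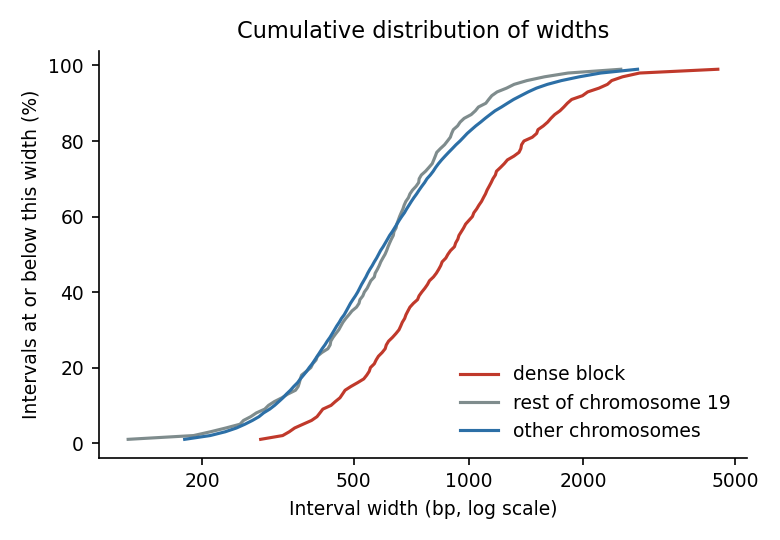
Percent of intervals (vertical axis) at or below a given width in bp (horizontal log axis), from the 1st to the 99th percentile, for the dense block, the rest of chromosome 19 and the other chromosomes. The line of the block lies to the right of the others, with medians of 883, 604 and 581 bp.

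The width varied along the block. In the sparse stretch the median was 791 bp and 32.7% of members were 1 kb or wider, and in the middle stretch the values were 780 bp and 32.5%. The sparse stretch was not uniform: its windows of 1 Mb from 35, 36 and 37 Mb had medians of 664, 791 and 918 bp, and 5.26%, 32.3% and 41.9% of their intervals were 1 kb or wider. The window from 37 Mb, with 43 intervals, was thus above the window from 38 Mb, with 120 intervals, a median of 735.5 bp and 30.8% at 1 kb or wider. Width did not follow density at that step. Count and median width rose together over the windows from 35, 36 and 37 Mb, and again from the window at 38 Mb to that at 39 Mb. In the dense end the median was 1011 bp and 51.1% were 1 kb or wider. In the last 100 kb before the edge the median was 1231 bp and 25 of 43 members (58.1%) were 1 kb or wider. Between 33 and 35 Mb, just before the block, the median was 667 bp, and from the edge to 45 Mb the 16 intervals had a median of 554 bp.

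Part of the width difference remained away from clusters. The 44 members with no neighbour within 12500 bp had a median of 680.5 bp, against 607.5 bp for the 210 such intervals of the rest of the chromosome, a ratio of 1.12. Among intervals in clusters of 3 or more, the medians were 909 bp for 451 members and 611.5 bp for 160 intervals of the rest, a ratio of 1.49. By these pooled medians, the intervals in clusters were thus wider than those alone in the block. On the rest of the chromosome the pooled medians were close, but its clusters differed among themselves. The 4 dense clusters of the rest had medians on both sides of the chromosome's own: 328.5 bp for the cluster that began at 27744048, 539 bp for the one that ended at 24631709, 778 bp for the one between 48406764 and 48461037, and 845.5 bp for the one between 50594296 and 50638580. The longest stretch of chromosome 19 without an interval, of 3.11 Mb, lies between the clusters ending at 24631709 and beginning at 27744048. Whether this stretch holds assembled sequence that could carry an interval was not checked.

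The 10 widest members show where the very wide intervals lay. The widest ran from 36778255 to 36800944 (22689 bp) and the second from 37779675 to 37792644 (12969 bp), both in the sparse stretch, and they rank 6th and 19th by width in the whole list. Next came 3 intervals of the dense end. The third widest, of 9088 bp, lay between 39661011 and 39670099. The fourth, of 7061 bp, lay between 39850984 and 39858045, and the fifth, of 7059 bp, between 39434280 and 39441339. These 5 made up 10.3% of the bp covered in the block. The sixth, from 38874513 to 38879080 (4567 bp), lay in the middle stretch. The other 4, of 3128 to 3998 bp, lay in the dense end, at 39359623, 39573696, 39868185 and 39896551. The widest interval of the rest of the chromosome was 3444 bp, from 197617 to 201061, so 8 of the 10 were wider than any interval there.

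The 2 widest stood apart from their surroundings. The widest had gaps of 17.8 kb before it and 9.77 kb after it, and its neighbours were 1251 bp wide before it and 331 bp after it. The second had gaps of 11.5 and 10.4 kb, and its neighbours were 779 and 1083 bp wide. The 3 next widest, by contrast, lay among intervals with gaps of 0.155 to 4.24 kb. In the plot of widths by position, the 2 widest are the points far above the sparse part of the block.

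**Figure D4:**
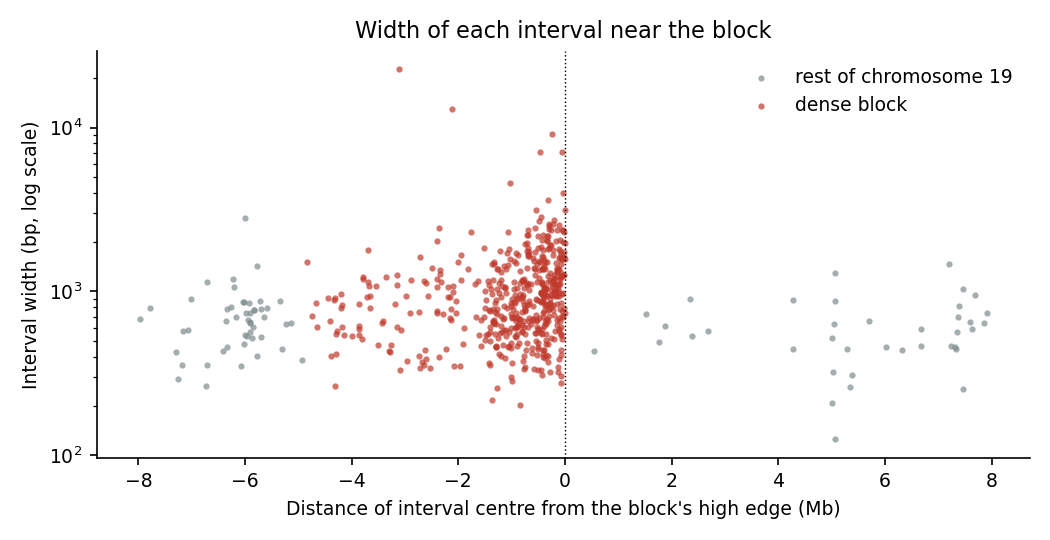
Width of each interval in bp (vertical log axis) against the distance of its centre from the high edge of the block in Mb (horizontal axis), for members in red and other intervals of chromosome 19 within 8 Mb in grey. Widths above 2000 bp crowd next to the edge on its low side, and the 16 intervals from the edge to 45 Mb have a median of 554 bp.

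Members lay closer together than intervals of the rest of the chromosome, which follows from the density that chose the block. The median gap was 1.80 kb in the block (quartiles 0.4275 and 5.695 kb) and 27.8 kb in the rest of the chromosome (quartiles 2.73 and 116 kb), a ratio of 15.5. Gaps of 100 bp or less made up 63 of 510 (12.4%) in the block, 22 of 448 (4.91%) in the rest and 4.66% in all chromosomes. Gaps under 1 kb made up 37.3%, 16.5% and 15.7%. When intervals no more than 1 kb apart were merged, 321 stretches were left of 511 members (62.8%), against 376 of 450 (83.6%) in the rest and 84.3% in all chromosomes. Of the merged stretches, 28 in the block and 4 in the rest were 5 kb or wider, beside 284 of 17823 (1.59%) in all chromosomes.

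After merging, the widest stretch of the block was still the single interval of 22689 bp. The second ran from 39584733 to 39604512 (19779 bp) and joined 11 members that covered 79.1% of it. The third ran from 39781820 to 39797200 (15380 bp) and joined 10 members, the fourth was the single interval of 12969 bp, and the fifth ran from 39479402 to 39492366 (12964 bp) and joined 9. The dense end thus held stretches of a width between those of the 2 widest intervals or close to the second, each made of several listed intervals.

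Dense windows of other chromosomes gave a measure for these values. Windows of 5 Mb were taken on chromosome 18 from 20 Mb, on chromosome 20 from 50 Mb and on chromosome 8 from 140 Mb, and they held 589, 664 and 527 intervals. The median width was 1102 bp on chromosome 18, 691.5 bp on chromosome 20 and 904 bp on chromosome 8, so the 883 bp of chromosome 19 was nearest to chromosome 8. The covered share was 15.7%, 10.4% and 11.5%, beside 11.5% on chromosome 19. The share of intervals 1 kb or wider was 53.8%, 20.9% and 44.6%, beside 41.1%. Gaps of 100 bp or less were 112 of 588 on chromosome 18 and made up 5.88% on chromosome 20 and 7.03% on chromosome 8, beside 12.4% on chromosome 19. The chromosome 20 window held more intervals than the chromosome 19 block and narrower ones, so the count and the width of dense windows did not follow the same order. The share of intervals in clusters of 3 or more was 97.6%, 92.6% and 87.5%, beside 88.3% on chromosome 19, 35.6% in the rest of that chromosome and 45.1% in all chromosomes. None of these differences was tested.

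**Figure D5:**
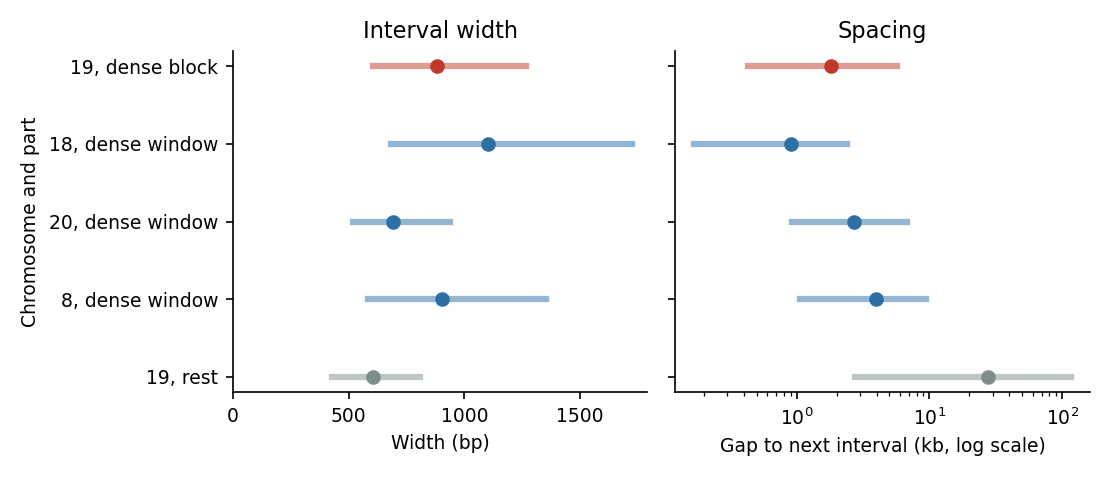
Width in bp (left, linear axis) and gap to the next interval in kb (right, log axis) in the dense block of chromosome 19, in dense 5 Mb windows of chromosomes 18, 20 and 8, and in the rest of chromosome 19; points are medians and bars run from the first to the third quartile. The median gap is 1.80 kb in the block, 0.901, 2.68 and 3.96 kb in the windows of chromosomes 18, 20 and 8, and 27.8 kb in the rest of chromosome 19.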

How the data were processed

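The authors deposited 1 list of intervals common to 4 CUT&RUN libraries, with 3 columns: chromosome, start and end (other positional values in bp, no score). The build hg19 and the tools SEACR, which calls CUT&RUN peaks, and HOMER are named per the submitters' processing notes. Their versions and settings, and the overlap that made a peak common, are not given in the sources used. Of 21308 intervals, the 21139 on the 22 autosomes and chromosome X were used; 0 were duplicated or overlapping. Whether starts count from 0 or 1 is not stated. Read depth is unknown, and precision between libraries could not be measured.

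Positions were analysed with pandas 2.3.3, numpy 2.4.6 and scipy 1.17.1 under Python 3.11.15 and plotted with matplotlib 3.10.9. Densities are intervals per Mb, with the length of the rest of chromosome 19 taken from its first to its last interval without the 5 Mb of the block. Clusters join neighbours with gaps of at most 12500 bp. The cluster, gap and merging steps were checked on simulated intervals. No test was run, since the list pools the libraries. Motif, promoter and nearby-gene shares need an hg19 sequence or annotation and were not run. Intervals were named by rule: the 10 widest members, the 5 at each end of the largest cluster, the first and last member and the nearest interval outside each bound; others were chosen after their values were seen. The members, the lists and the thresholds were chosen with earlier results of these data known. Alternatives were merging intervals, leaving out narrow ones, other bounds, linking distances and edge distances.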

Additional observations from a re-analysis of the deposited data

How the results depend on the processing

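Of 39 recomputed values, 29 stayed close to the reported one and 10 moved: ratios and covered shares were called close within 1.5 times, and the share in clusters and the edge step within the exact 95% binomial interval, which covers counting error only. That interval takes members as independent, which neighbours in a cluster are not, so it serves as a cut-off and measures no spread between libraries. None changed direction. With the block cut to 38 to 40 Mb the density ratio was 25.1 and the covered share 23.0%. Without its largest cluster the density ratio was 7.59, the covered share 6.44% and the ratio of median gaps 6.13. The ratio of median gaps was 9.28 after merging intervals within 1 kb, and 26.1 without the dense clusters of the rest of the chromosome, an alternative chosen after seeing the data. The share of members in clusters of 3 or more, 88.3% in the block as deposited, was 80.4% after merging, 77.1% with a linking distance of 5 kb and 92.2% with 25 kb. The width ratio lay between 1.29, without the largest cluster, and 1.63, after merging, which widens close intervals by construction. The edge had 0 intervals within 500 kb beyond it in each setting tried. That was given in advance, because the gap there is 548 kb and no setting adds intervals. Other values could not move either. The covered share of the block does not depend on settings that change only the rest. Leaving out the longest empty stretch of the rest removes no interval, so it cannot change the width ratio. Leaving out intervals of 200 bp or less cannot change the block, whose narrowest member is 202 bp. The 29 close values include these. Of the intervals within 1 Mb of the edge, 99.7% lay before it. Alternatives on motifs and promoters were not run. Leaving out each library could not be done on a pooled list, and no paired analysis was possible because the list carries no values per library. The depth of the libraries is not known, and ground without an interval may hold peaks of fewer than 4 libraries.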
